A study of Mus musculus with 21 samples.

Results

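The genes described here encode adrenergic receptors and adenylyl cyclases, together with angiotensin-converting enzyme, the angiotensin II receptor and an endothelin receptor. They were chosen by name: *Adrb1*, *Adra1a*, *Adra1b*, *Adcy5*, *Adcy6*, *Agtr1a*, *Ace* and *Ednra*, which are 8 of the 56691 genes in the deposited table, and all 8 were found there. Their read counts and FPKM values (the count divided by gene length and by the library total, so that levels can be compared between genes) were followed across 21 mouse heart RNA libraries. Control (n = 5) were mice without a tumor given NS, DOX (n = 5) were mice without a tumor given doxorubicin, Tb (n = 6) were tumor-bearing mice given NS, and Tb-DOX (n = 5) were tumor-bearing mice given doxorubicin. Doxorubicin, an anthracycline that intercalates into DNA and poisons topoisomerase II, was given intraperitoneally at 5 mg/kg once a week for 3 weeks. The tumors were raised by subcutaneous injection of 4T1 cells, a mouse mammary carcinoma line, so that the tumor lay outside the heart. Strain, sex and age of the mice were not given in the sources used here, and nothing there states that each library came from a separate mouse, so p-values measure the spread between these libraries.

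In the heart, noradrenaline released from sympathetic nerve endings acts on β-adrenergic receptors, which couple through a stimulatory G protein to adenylyl cyclase. The cyclic AMP that is made activates protein kinase A, which raises the rate and force of contraction. Cardiac myocytes use mainly the cyclases encoded by *Adcy5* and *Adcy6*. The α1-adrenergic, angiotensin II and endothelin receptors couple mainly to Gq and phospholipase C, and are known for their part in vascular tone and in hypertrophic growth of the myocardium. Angiotensin-converting enzyme, which is made chiefly by the vascular endothelium, cleaves angiotensin I to angiotensin II and breaks down bradykinin.

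Depth was 13521200 to 18601445 counts per library, and the ranges of the 4 groups overlapped. The labels give 4T-1 as the source of every library, whereas the study describes hearts. The cardiomyocyte gene *Myh6* lay between 2495.14 and 4538.37 FPKM in all libraries, and the epithelial markers *Epcam*, *Krt8*, *Krt18*, *Krt14* and *Cdh1*, which mark a carcinoma such as 4T1, summed to 0.11 to 2.46 FPKM. Tb replicate 5 stood apart from the other libraries. Its median correlation with the rest of its group over genes was 0.887, whereas it was 0.932 to 0.955 for the other Tb libraries and at least 0.933 in the other groups. The 8 genes and the named pathway genes are given below also without it where it moved a call or a count, and for the pathway lists this was chosen after seeing the data. It enters the shared estimate of spread, so it also bears on comparisons without Tb. Without it, all genes called were 825 in Tb-DOX against Tb (660 with it), 678 in Tb against Control (879) and 1285 in the interaction (1251). They were 5943 in DOX against Control (5071 with it) and 3478 in Tb-DOX against DOX (2442). The counts of cardiomyocyte, atrial and erythroid markers called in Tb-DOX against Tb, and of leukocyte markers called in Tb against Control, were equal with and without it. All libraries are bulk tissue, in which fewer cells of a type and less RNA per cell cannot be told apart.

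On GRCm39, the build in the submitters' processing notes, *Adrb1* (ENSMUSG00000035283) lies on the plus strand at chr19:56710631-56721545, *Adra1a* (ENSMUSG00000045875) on the plus strand at chr14:66872700-67008617 and *Adra1b* (ENSMUSG00000050541) on the minus strand at chr11:43665433-43792037. *Adcy5* (ENSMUSG00000022840) lies on the plus strand at chr16:34975247-35126108 and *Adcy6* (ENSMUSG00000022994) on the minus strand at chr15:98487854-98507957. *Ace* (ENSMUSG00000020681) lies on the plus strand at chr11:105858771-105880790, *Agtr1a* (ENSMUSG00000049115) on the plus strand at chr13:30520424-30566850 and *Ednra* (ENSMUSG00000031616) on the minus strand at chr8:78389660-78451093. Each value is a gene-level count over all exons, so transcript forms were not separated. Whether counting used strand is not stated, so reads of *Ednra* and of 4933431K23Rik, which overlaps it on the opposite strand with a mean of 3.19 FPKM and up to 642 counts, cannot be told apart where they overlap. Gm48161 overlaps *Agtr1a* on the same strand with at most 97 counts in a library.

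*Ace* passed the test in more of the comparisons below than any other of these genes. Its 2 start sites are shown because gene-level counts would join any forms made from them. Which start was used in these libraries was not measured. The windows are the 250 bases before each start in RefSeq on GRCm38.p6, another build than that of the table, read 5′ to 3′ on the plus strand. Capitals mark matches to the GC box GGGCGG or to TATAAA on either strand, and GC boxes that overlap are counted separately.
Ace start 1, chr11:105967698-105967947: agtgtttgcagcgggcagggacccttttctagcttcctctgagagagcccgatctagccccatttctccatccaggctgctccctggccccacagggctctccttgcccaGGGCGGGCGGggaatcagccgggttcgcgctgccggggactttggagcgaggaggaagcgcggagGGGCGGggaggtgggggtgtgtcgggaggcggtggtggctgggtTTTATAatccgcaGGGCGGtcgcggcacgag
Ace start 2, chr11:105974939-105975188: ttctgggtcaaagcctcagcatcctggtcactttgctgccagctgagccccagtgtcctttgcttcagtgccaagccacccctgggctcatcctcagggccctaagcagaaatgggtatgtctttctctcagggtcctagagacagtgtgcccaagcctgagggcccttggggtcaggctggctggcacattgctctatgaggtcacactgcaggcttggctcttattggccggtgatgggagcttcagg
The first window, before the start of the longest form, held 4 GC boxes and 1 match to TATAAA on the minus strand, at a GC content of 67.2%. The second start lies in the intron after exon 12 of the 25 exons of transcript Ace-201 (GENCODE M21, GRCm38), and its window held none of the motifs searched, which also took in TGACGTCA, its part TGACG and CACGTG. Of 32851 windows of the same length in the RefSeq table, 32.7% held a GC box and 12.4% held TATAAA.

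The window of *Adrb1*, the receptor that feeds the cyclic AMP pathway, is shown beside these because its capitals hold the only match among the windows of these genes to TGACG, the core of the cyclic AMP response element, which 17.8% of all windows held. It also held 1 GC box, on the minus strand.
Adrb1, chr19:56721867-56722116: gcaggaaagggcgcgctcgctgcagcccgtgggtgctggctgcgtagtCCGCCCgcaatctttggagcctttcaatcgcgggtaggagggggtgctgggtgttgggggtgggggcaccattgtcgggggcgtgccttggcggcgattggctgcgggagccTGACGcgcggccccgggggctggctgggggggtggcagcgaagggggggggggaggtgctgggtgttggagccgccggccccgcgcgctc
Windows were found for 5 of the 8 genes (*Ace*, *Adcy5*, *Adra1b*, *Adrb1* and *Ednra*). The window of *Adcy5* held 4 GC boxes and that of *Ednra* held no match to any motif. A match of letters is a description and not a site of binding.

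*Adcy6* had the highest level of the 8 genes per length, with a mean of 39.3 FPKM over all libraries. *Ednra* followed at 18.2 FPKM, *Ace* at 11.1, *Adcy5* at 10.2 and *Agtr1a* at 7.86, and the adrenergic receptors were lowest at 3.36 (*Adra1b*), 2.57 (*Adrb1*) and 1.62 (*Adra1a*). Within Control, neighbours in this order did not overlap from *Adcy6* down to *Ace* or from *Adcy5* down to *Adra1b*. *Ace* and *Adcy5* overlapped, as did *Adra1b* with *Adrb1* and *Adrb1* with *Adra1a*. All 8 genes passed the filter for testing, a mean of at least 0.5 FPKM over all libraries.

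**Figure D1:**
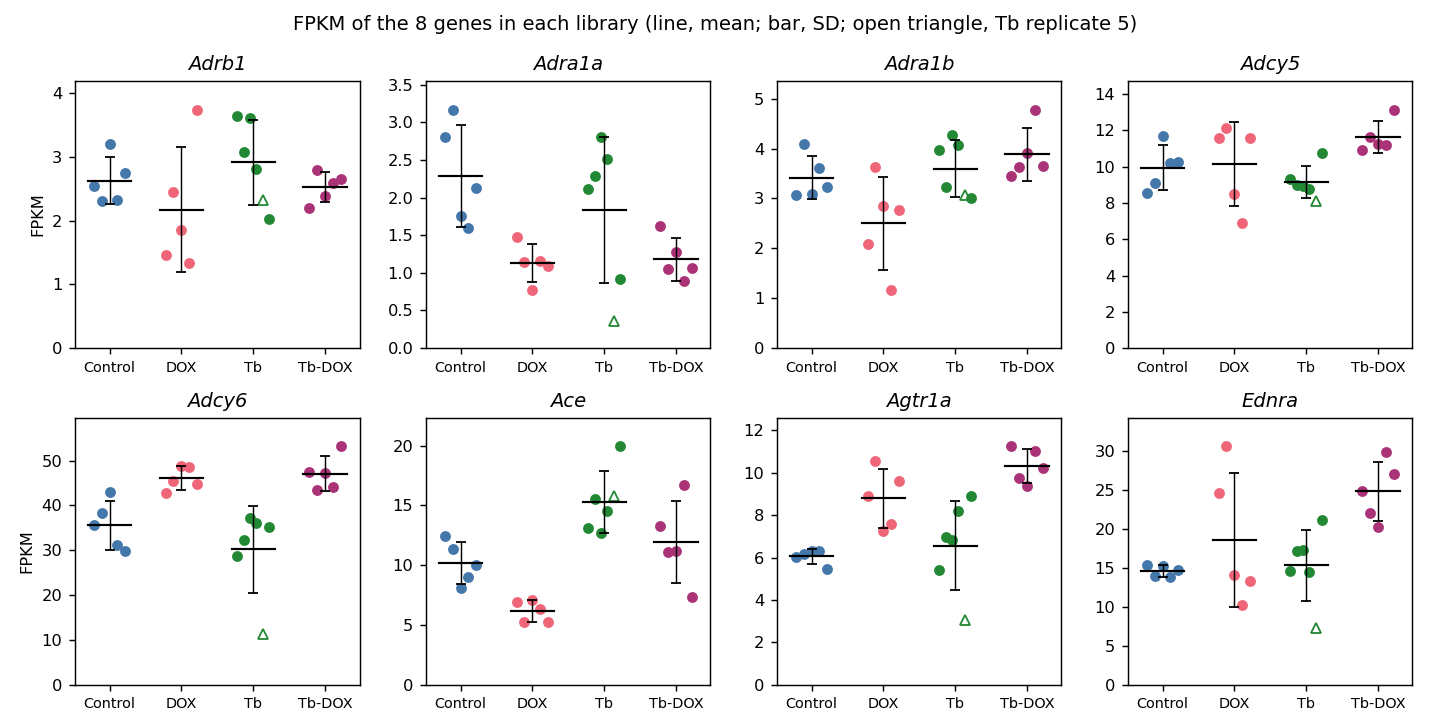
FPKM of each gene (linear axis from 0) in every library of the 4 groups, with the group mean (line) and SD (bar), and Tb replicate 5 as an open triangle. *Agtr1a* lay above 7 FPKM in all DOX libraries and below 7 in all Control libraries, and Tb replicate 5 was the lowest Tb library for *Adcy5*, *Adcy6*, *Agtr1a*, *Ednra* and *Adra1a*.

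Doxorubicin without a tumor went with higher *Agtr1a* and *Adcy6* and lower *Ace*, and doxorubicin in tumor-bearing mice with higher *Agtr1a* and *Adcy6*. In the edgeR quasi-likelihood fit with Benjamini-Hochberg adjustment, 3 of the 8 genes passed an adjusted p of 0.05 between DOX and Control, 2 higher and 1 lower, where 36.2% of the 13990 genes tested passed (18% higher and 18.2% lower). Between Tb-DOX and Tb, 2 of 8 passed, both higher, where 4.72% of all genes passed and 2.18% passed as higher. None of the 8 also reached a 2-fold change (9.95% and 1.11% of all genes did). FPKM of the groups did not overlap for 3 of 8 genes in each comparison, against 25.2% and 4.3% of all genes. FPKM is scaled by library totals, with which all genes had a median log2 fold change of −0.14 in DOX against Control. The exact permutation tests below use FPKM too. After TMM scaling, which corrects for differences in RNA composition, *Ace* and *Adra1a* overlapped in DOX against Control and *Adcy6* did not. In Tb-DOX against Tb *Ednra* then did not overlap either. The median absolute log2 fold change was 0.51 over the 8 genes and 0.35 over all genes without a tumor, and 0.50 and 0.19 with a tumor. These 2 comparisons share no library.

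**Figure D2:**
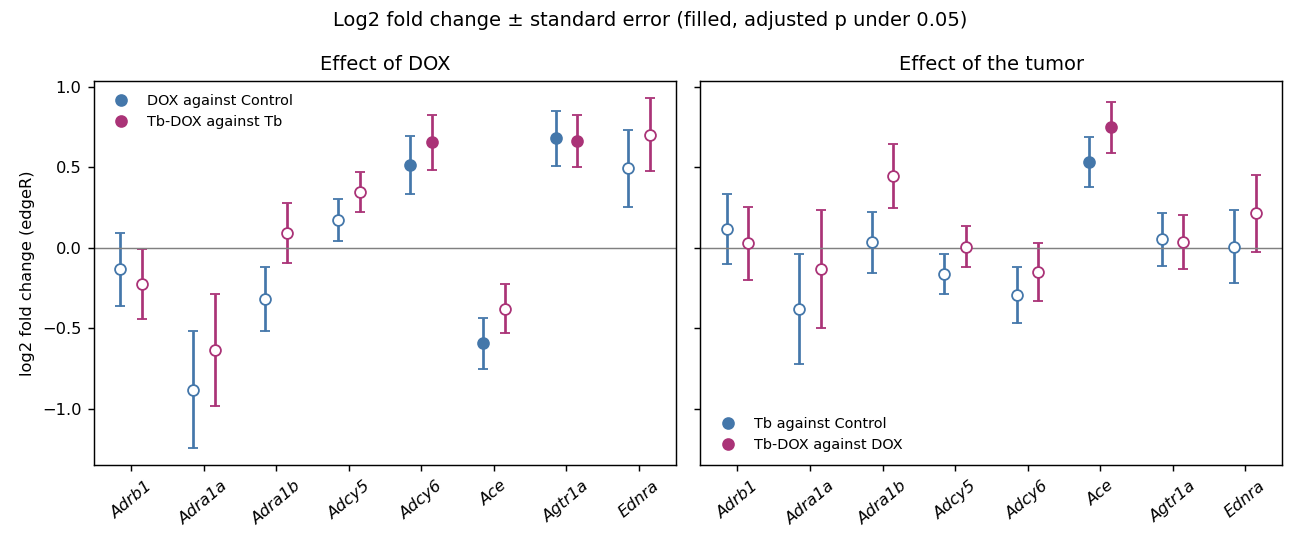
Log2 fold change of each gene with its standard error in the edgeR fit, for doxorubicin (left) and for the tumor (right); filled points passed an adjusted p of 0.05. The points for *Agtr1a* were nearly equal without and with a tumor (0.68 and 0.66), and *Ace* was the only gene filled on the right.

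*Agtr1a* encodes the angiotensin II type 1 receptor, through which angiotensin II constricts vessels and acts on the heart. Its FPKM was 6.04, 6.17, 6.32, 6.32 and 5.44 in Control and 8.88, 10.57, 7.25, 7.58 and 9.63 in DOX. It was 5.41, 6.96, 6.83, 8.20, 3.05 and 8.90 in Tb and 11.24, 9.75, 9.37, 11.03 and 10.21 in Tb-DOX. Every DOX library was above every Control library, and every Tb-DOX library above every Tb library. *Agtr1a* was 1.60-fold higher in DOX than in Control (0.68 on the log2 scale, SE 0.172, edgeR adjusted p = 0.00416; exact permutation p = 0.00794, the smallest that 5 against 5 libraries can give). In Tb-DOX it was 1.58-fold higher than in Tb (0.66 on the log2 scale, SE 0.163, edgeR adjusted p = 0.0226; exact permutation p = 0.00649). Without Tb replicate 5, the lowest Tb library, the second log2 fold change was 0.54 (edgeR adjusted p = 0.0113). The call of that comparison was lost without Tb replicate 1 (0.0523), Tb-DOX replicate 1 (0.061) or Tb-DOX replicate 5 (0.0571), with log2 fold changes of 0.63 to 0.65, and in a fit of the groups Tb-DOX and Tb alone (0.67, edgeR adjusted p = 0.073).

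*Ace* encodes the enzyme one step upstream of this receptor. Its FPKM was 12.41, 11.34, 8.10, 9.01 and 10.02 in Control and 6.91, 5.24, 7.10, 6.37 and 5.27 in DOX. It was 13.09, 15.50, 12.72, 14.53, 15.78 and 19.94 in Tb and 13.31, 11.08, 11.15, 16.69 and 7.36 in Tb-DOX. All DOX libraries were below all Control libraries, while Tb-DOX overlapped Tb. *Ace* fell by 0.59 on the log2 scale in DOX (0.66 of the Control level, SE 0.160, edgeR adjusted p = 0.0066; exact permutation p = 0.00794). In Tb-DOX against Tb the log2 fold change was −0.38 (SE 0.152, edgeR adjusted p = 0.158; exact permutation p = 0.0844), which did not pass. The summed FPKM of 10 endothelial markers was lower in DOX (212 to 287) than in Control (314 to 370). In the edgeR fit 2 of the 10 fell and 0 rose, and without Tb replicate 5 2 fell and 1 rose. Of 9 tested leukocyte markers, 4 fell in DOX, which were *Adgre1* (log2 fold change −1.98), *Ptprc* (−1.24), *Csf1r* (−1.195) and *C1qa* (−0.82), and 3 rose, which were *Cd3e*, *S100a8* and *S100a9*. The summed FPKM of the leukocyte list was 33.41, 20.55, 98.18, 120 and 21.05 in DOX. Only DOX replicates 3 and 4 were above the Control range of 30.69 to 45.89. Of the same 9, *Adgre1* and *Csf1r* also fell in Tb-DOX against Tb. The part of either cell type in the *Ace* result was not tested. After TMM scaling, the *Ace* values of DOX and Control overlapped.

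*Adcy6* encodes one of the cyclases that are inhibited by calcium. Its FPKM was 35.53, 38.41, 42.97, 31.13 and 29.76 in Control and 42.71, 45.35, 48.87, 48.61 and 44.71 in DOX. It was 28.83, 32.38, 37.23, 36.09, 11.43 and 35.30 in Tb and 47.53, 43.48, 47.21, 44.22 and 53.18 in Tb-DOX. One Control library (42.97) overlapped the DOX range in FPKM but not after TMM scaling, and Tb-DOX lay wholly above Tb on both scales. *Adcy6* was 1.43-fold higher in DOX (0.52 on the log2 scale, SE 0.180, edgeR adjusted p = 0.0297; exact permutation p = 0.0159). In Tb-DOX it was 1.57-fold higher than in Tb (0.66 on the log2 scale, SE 0.172, edgeR adjusted p = 0.0327; exact permutation p = 0.00649). Without Tb replicate 5, which held 11.43 FPKM, the log2 fold change was 0.50 (edgeR adjusted p = 0.00376) with a tumor and 0.52 (edgeR adjusted p = 0.000195) without one.

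Both calls of *Adcy6* were sensitive to single libraries and to scaling. The call without a tumor was lost without Control replicate 4 (adjusted p = 0.0661), Control replicate 5 (0.075), DOX replicate 2 (0.0506) or DOX replicate 4 (0.0615) in edgeR, and with library totals in place of TMM (log2 fold change 0.37, adjusted p = 0.141) or limma with a pseudocount of 0.1 (adjusted p = 0.181) or 1 (0.177). The call with a tumor was lost without Tb replicate 1 (0.0575) or Tb-DOX replicate 1 (0.0667), 2 (0.0543), 3 (0.0678) or 5 (0.0923), and with library totals (0.0577), the groups Tb-DOX and Tb alone (0.116) or limma at 0.1 (0.0609) or 1 (0.0547). The direction was higher with doxorubicin in every one of these fits.

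*Adcy5* encodes the other main cyclase of the heart. Its FPKM was 8.53, 9.08, 11.69, 10.19 and 10.27 in Control and 11.57, 12.12, 8.47, 6.89 and 11.60 in DOX, so that DOX libraries lay on both sides of Control. It was 9.31, 8.99, 8.92, 8.76, 8.08 and 10.73 in Tb and 10.91, 11.62, 11.25, 11.21 and 13.14 in Tb-DOX, which did not overlap. The log2 fold change was 0.17 without a tumor (SE 0.129, edgeR adjusted p = 0.307; exact permutation p = 1.0) and 0.35 with a tumor (SE 0.123, edgeR adjusted p = 0.110; exact permutation p = 0.00433). Neither passed across all genes. In a fit of the groups Tb-DOX and Tb alone the second passed (0.35, edgeR adjusted p = 0.0469).

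Among the cyclases, *Adcy6* made up a median of 64.3% of the summed FPKM of *Adcy1* to *Adcy10* in Control (58.4% to 66.0%) and 69.6% in DOX (68.1% to 77.2%), without overlap. The share was 59.1% in Tb (36.5% to 64.6%, and 56.9% to 64.6% without Tb replicate 5) and 66.5% in Tb-DOX (61.6% to 69.7%), which overlapped. *Adcy5* held 18.0% in Control and 18.0% in DOX. No test was run on these shares. *Adcy4*, the next most abundant cyclase, had a log2 fold change of −0.31 in DOX (SE 0.158, edgeR adjusted p = 0.125), and *Adcy7*, a cyclase of blood cells and other tissues, fell by 1.17 (SE 0.199, edgeR adjusted p = 0.000165). With a tumor *Adcy7* was at −0.57 (edgeR adjusted p = 0.0834), and at −0.63, just past the threshold, without Tb replicate 5 (edgeR adjusted p = 0.04996).

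*Adrb1* encodes the β1-adrenergic receptor, the main β receptor of cardiac myocytes. Its FPKM was 2.55, 2.31, 3.20, 2.33 and 2.74 in Control and 1.46, 2.45, 1.86, 1.34 and 3.74 in DOX. It was 3.64, 3.07, 3.61, 2.81, 2.33 and 2.02 in Tb and 2.19, 2.79, 2.38, 2.59 and 2.65 in Tb-DOX. The ranges overlapped in both comparisons, and the DOX libraries held both the lowest and the highest value of the series. The log2 fold change was −0.13 without a tumor (SE 0.228, edgeR adjusted p = 0.678; exact permutation p = 0.230) and −0.22 with a tumor (SE 0.216, edgeR adjusted p = 0.610; exact permutation p = 0.281).

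*Adra1a* encodes the α1A-adrenergic receptor, a Gq-coupled receptor of myocytes and smooth muscle. Its FPKM was 2.81, 3.17, 1.75, 1.60 and 2.13 in Control and 1.48, 1.15, 0.77, 1.16 and 1.09 in DOX, with every DOX library below every Control library, although the groups overlapped after TMM scaling. It was 2.12, 2.29, 2.81, 2.51, 0.36 and 0.92 in Tb and 1.62, 1.05, 1.28, 0.89 and 1.06 in Tb-DOX. The log2 fold change in DOX was −0.88 (SE 0.361, edgeR adjusted p = 0.0612; exact permutation p = 0.00794), which did not pass across all genes. It passed without Tb replicate 5 (log2 fold change −0.87, edgeR adjusted p = 0.0124), a library outside this comparison, and without Tb replicate 6 (adjusted p = 0.0497). DESeq2 (adjusted p = 0.0374), a fit of the groups DOX and Control alone (0.00801) and library totals (0.0286) also passed it, as did limma with a pseudocount of 1 (0.0364) and edgeR with no filter (0.0482). With a tumor the log2 fold change was −0.63 (SE 0.347, edgeR adjusted p = 0.318; exact permutation p = 0.461), and −0.84 (edgeR adjusted p = 0.0688) without Tb replicate 5, where the remaining Tb libraries still overlapped Tb-DOX through Tb replicate 6.

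*Adra1b* encodes the α1B-adrenergic receptor, another Gq-coupled receptor. Its FPKM was 3.07, 4.09, 3.09, 3.61 and 3.22 in Control and 2.08, 3.64, 2.85, 1.17 and 2.77 in DOX. It was 3.97, 3.23, 4.27, 4.07, 3.06 and 3.0 in Tb and 3.44, 3.64, 3.91, 4.78 and 3.66 in Tb-DOX. In DOX, 4 of 5 libraries were below the Control mean, and the log2 fold change was −0.32 (SE 0.200, edgeR adjusted p = 0.221; exact permutation p = 0.0873). Without DOX replicate 2, the highest of these, it was −0.52 and passed (edgeR adjusted p = 0.0398). Without DOX replicate 4, the lowest, it was −0.14 and did not pass. With a tumor it was 0.09 (SE 0.188, edgeR adjusted p = 0.828; exact permutation p = 0.381).

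*Ednra* encodes the endothelin A receptor, which binds endothelin 1 on smooth muscle and myocytes. Its FPKM was 15.38, 13.94, 15.28, 13.81 and 14.70 in Control and 24.65, 30.62, 14.14, 10.24 and 13.37 in DOX. It was 14.61, 17.23, 17.26, 14.47, 7.29 and 21.10 in Tb and 24.91, 22.04, 20.31, 29.88 and 27.01 in Tb-DOX. The DOX libraries were split, with 2 far above Control and the other 3 within or below its range, whereas in Tb-DOX only the library at 20.31 was within the Tb range. The log2 fold change was 0.50 without a tumor (SE 0.238, edgeR adjusted p = 0.108; exact permutation p = 0.444). Over libraries left out it ranged from 0.22 without DOX replicate 2 to 0.65 without DOX replicate 4, where it passed (edgeR adjusted p = 0.0355). With a tumor it was 0.70 (SE 0.227, edgeR adjusted p = 0.0774; exact permutation p = 0.00649), and 0.58 (edgeR adjusted p = 0.0992) without Tb replicate 5. DESeq2 passed it (adjusted p = 0.0373), as did edgeR without DOX replicate 2 (0.044).

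Leaving out Tb replicate 5 changed no call for the remaining genes in Tb-DOX against Tb, where the log2 fold change was then 0.35 for *Adcy5* (edgeR adjusted p = 0.114), −0.25 for *Adrb1* (0.571), 0.08 for *Adra1b* (0.867) and −0.33 for *Ace* (0.222). The 32 exact permutation tests (8 genes in 4 comparisons, two-sided, on log2(FPKM + 0.1)) are given unadjusted. The cardiomyocyte markers moved with the same comparisons as *Agtr1a* and *Adcy6*: 5 of 10 rose in each, and none fell. Their summed FPKM was 15385 to 22056 in Control, 18688 to 21795 in DOX, 13747 to 16264 in Tb and 17990 to 21150 in Tb-DOX. The 8 fibroblast markers summed to 232 to 294 in Control and 143 to 246 in DOX, with 5 lower and 1 higher. Their summed FPKM was 216 to 241 in Tb and 145 to 221 in Tb-DOX, with 4 lower (5 without Tb replicate 5). Of the 10 smooth muscle and pericyte markers, *Pdgfrb* rose in DOX (0.60, edgeR adjusted p = 0.000445), and *Pdgfrb* (0.40, edgeR adjusted p = 0.0383) and *Kcnj8* (0.55, edgeR adjusted p = 0.018) rose in Tb-DOX against Tb, also without Tb replicate 5. Their sums, most of them from *Rgs5*, *Acta2* and *Abcc9*, overlapped in both comparisons. The 5 erythroid markers all fell in both comparisons, with sums of 252 to 1093 FPKM in Control, 4.77 to 146 in DOX, 527 to 975 in Tb and 2.96 to 39.97 in Tb-DOX. The 6 atrial markers, of which 5 were tested and 1 rose in each comparison, summed to 112 to 372 FPKM in Control and 387 to 743 in DOX, and to 96.8 to 325 in Tb and 171 to 710 in Tb-DOX. Whether the results for *Agtr1a*, *Adcy6* and *Ednra* follow from these shifts was not tested.

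Whether the doxorubicin effect differed between mice with and without a tumor was tested as an interaction. In the edgeR fit 0 of 8 genes passed, where 8.94% of all genes did, and 0 of 8 had an unadjusted p under 0.05, where 28.9% of all genes did. DESeq2 also called 0. The difference of the log2 fold changes (with a tumor minus without) was 0.41 for *Adra1b* (SE 0.275, edgeR adjusted p = 0.326), the largest. It was 0.25 for *Adra1a* (SE 0.498), 0.21 for *Ace* (SE 0.220) and *Ednra* (SE 0.329), 0.17 for *Adcy5* (SE 0.179) and 0.14 for *Adcy6* (SE 0.249). It was −0.02 for *Agtr1a* (SE 0.237) and −0.09 for *Adrb1* (SE 0.314). Without Tb replicate 5 the 8 differences ranged from −0.15 for *Agtr1a* to 0.39 for *Adra1b*, and again 0 of 8 passed. The standard errors set how small a difference could have been seen, and a p above the threshold does not show that the effects were alike.

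Of the 8 genes, *Ace* alone passed between mice with and without a tumor, both with NS and under doxorubicin. Between Tb and Control 1 of 8 genes passed in edgeR, higher, where 6.28% of all genes passed and 5% passed as higher. Between Tb-DOX and DOX 1 of 8 passed, higher, where 17.5% of all genes passed and 9.52% passed as higher. The FPKM of the groups did not overlap for *Ace* alone in each, against 5.73% and 15.8% of all genes. These comparisons use the same libraries as those of doxorubicin, so their values are not independent of them.

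*Ace* was 1.45-fold higher in Tb than in Control (0.53 on the log2 scale, SE 0.153, edgeR adjusted p = 0.0389; exact permutation p = 0.00216, the smallest that 6 against 5 libraries can give). All 6 Tb libraries (12.72 to 19.94 FPKM) were above all Control libraries (8.10 to 12.41), although the closest values differed by 0.31 FPKM and the groups overlapped after TMM scaling. The call was lost without Tb replicate 5 (log2 fold change 0.49, edgeR adjusted p = 0.0743). It was also lost without Control replicate 3 (0.108), 4 (0.0982) or 5 (0.0832) and without Tb replicate 2 (0.0554) or 6 (0.0906). Other settings that lost it were replicate number as a block in edgeR (adjusted p = 0.107), limma with a pseudocount of 0.1 (0.0517) and edgeR with a filter of mean FPKM 5 (0.0503). Under doxorubicin *Ace* was 1.68-fold higher with a tumor (0.75 on the log2 scale, SE 0.160, edgeR adjusted p = 0.00277; exact permutation p = 0.00794), and 0.75 on the log2 scale without Tb replicate 5 (edgeR adjusted p = 0.0014). The closest FPKM values, 7.36 in Tb-DOX and 7.10 in DOX, were near each other, and the groups overlapped after TMM scaling. This call held without each library in turn, with log2 fold changes of 0.64 to 0.87.

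Leukocyte markers also differed in the tumor comparisons. Of 9 tested, 4 rose in Tb against Control (*Ptprc*, *Itgam*, *S100a8* and *S100a9*) and 5 did not pass, among them the macrophage genes *Adgre1*, *Csf1r*, *C1qa* and *Cd68*. In Tb-DOX against DOX 7 rose and *Cd3e*, a T cell gene, fell by 4.07 on the log2 scale (SE 1.22, edgeR adjusted p = 0.0245). The list of 10 summed to 30.7 to 45.9 FPKM in Control and 20.6 to 120 in DOX, but to 742 to 6489 in Tb and 1094 to 5285 in Tb-DOX, most of it from the neutrophil genes *S100a8* and *S100a9*. *Ptprc*, which encodes the leukocyte antigen CD45, rose by 3.02 on the log2 scale in Tb (SE 0.271, edgeR adjusted p = 1.61e-07; 2.96 without Tb replicate 5). The endothelial list summed to 333 to 469 FPKM in Tb and 283 to 391 in Tb-DOX. The part of either cell type in the *Ace* result was not tested.

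None of the other 7 genes passed in a tumor comparison in edgeR (0 had an unadjusted p under 0.05 in Tb against Control and 1, *Adra1b*, in Tb-DOX against DOX). *Adra1b* was closest under doxorubicin (log2 fold change 0.45, SE 0.200, edgeR adjusted p = 0.126; exact permutation p = 0.0238), and passed without DOX replicate 2 (0.65, adjusted p = 0.0256) and with library totals (0.64, adjusted p = 0.0308). Without DOX replicate 4 it was 0.26 and did not pass. With library totals in place of TMM, all genes shifted to a median of 0.18 (log2) in this comparison and −0.14 in DOX against Control, so FPKM values in DOX read low beside TMM-scaled ones. *Adcy6* had a log2 fold change of −0.29 in Tb against Control (SE 0.172, edgeR adjusted p = 0.340), and −0.13 without Tb replicate 5.

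**Figure D3:**
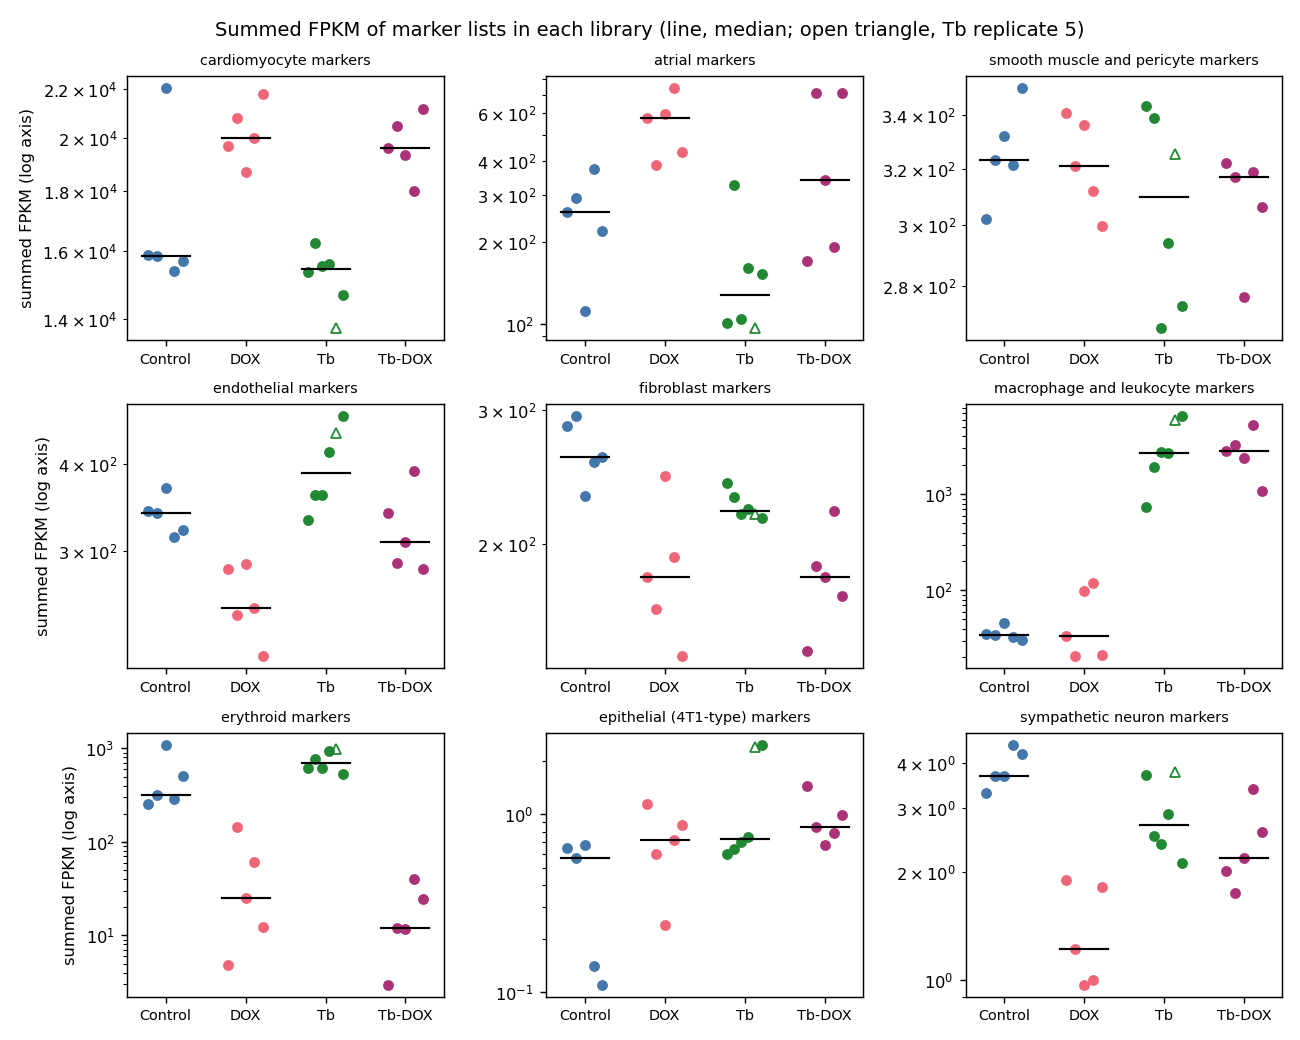
Summed FPKM (log axis) of marker lists of the cell types a heart sample can hold, by library, with the group median as a line and Tb replicate 5 as an open triangle. The leukocyte sums of Tb and Tb-DOX lay at or above 742 FPKM and those of Control and DOX at or below 120, and the epithelial sums stayed below 3 FPKM.

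The other genes of these pathways were taken from 10 lists of 113 genes, of which 88 were tested. Between DOX and Control 14 were higher and 21 lower in edgeR (19 and 23 without Tb replicate 5), beside 18% and 18.2% of all genes. Between Tb-DOX and Tb none were higher and 4 lower, beside 2.18% and 2.54% of all genes. Of the 88, 22 had an unadjusted p under 0.05 there, where 20.4% of all genes did. DESeq2 called 3 higher and 5 lower there, and edgeR without Tb replicate 5 called 3 higher and 6 lower. These shares are those of edgeR with every library, and apply to such counts of each list below. DESeq2 called 1043 of the 13990 genes in the second comparison, and edgeR without Tb replicate 5 called 5943 and 825 in the 2 comparisons. The median log2 fold change over the 88 genes was −0.02 and −0.08, and over all genes 0.00 and −0.02. Without a tumor the lists held genes called in both directions.

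**Figure D4:**
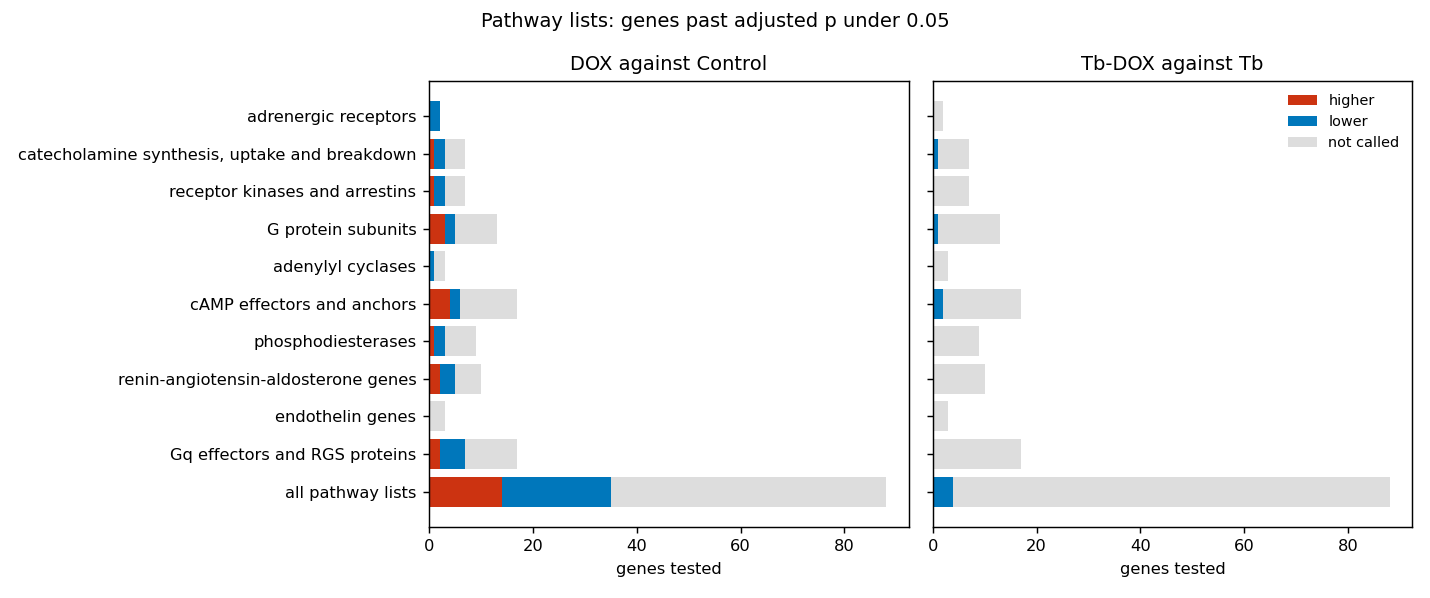
Number of tested genes in each pathway list that were higher, lower or not called (edgeR, adjusted p under 0.05) in the 2 doxorubicin comparisons. In all lists together 35 of 88 genes were called without a tumor and 4 of 88 with a tumor, where 36.2% and 4.72% of all genes were.

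Among the other adrenergic receptors, *Adra1d* fell in DOX by 1.16 on the log2 scale (SE 0.440, edgeR adjusted p = 0.0429) at low values, with at most 32 counts in a library.

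Among the genes for making, storing and removing catecholamines, 1 was higher and 2 were lower of 7 tested in DOX. *Dbh*, dopamine β-hydroxylase, which makes noradrenaline, was at 1.59 to 2.95 FPKM in Control and 0.20 to 0.95 in DOX, and fell by 2.20 on the log2 scale (SE 0.402, edgeR adjusted p = 0.000298). *Slc18a2*, the vesicular monoamine transporter, fell by 1.13 (SE 0.288, edgeR adjusted p = 0.00422), and the interaction was called for it (1.32, SE 0.388, edgeR adjusted p = 0.0375; 1.25 without Tb replicate 5, adjusted p = 0.0447). In Tb-DOX against Tb *Dbh* did not pass (log2 fold change −0.96, SE 0.374, edgeR adjusted p = 0.143; −0.95 without Tb replicate 5). The neuron markers *Th* and *Slc6a2* were at 0.13 FPKM or below in every library. The 6 sympathetic markers, of which *Dbh* is one, summed to 3.31 to 4.5 FPKM in Control and 0.97 to 1.9 in DOX, and to 2.11 to 3.77 in Tb and 1.74 to 3.4 in Tb-DOX, which overlapped.

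Of 7 receptor kinases and arrestins, which switch these receptors off, 1 was higher and 2 lower in DOX. *Arrb2*, β-arrestin 2, was at 3.60 to 5.40 FPKM in Control and 1.44 to 2.96 in DOX, and fell by 0.93 (SE 0.291, edgeR adjusted p = 0.0163). *Grk3* was 0.75 higher (SE 0.166, edgeR adjusted p = 0.00154), whereas *Grk2*, the most abundant, had a log2 fold change of −0.13 (SE 0.118, edgeR adjusted p = 0.419). In Tb-DOX against Tb edgeR called 0 of the 7 (1 higher without Tb replicate 5), with 1 at an unadjusted p under 0.05, and DESeq2 called 1. The gene called without Tb replicate 5 was *Grk3* (log2 fold change 0.71, SE 0.126, edgeR adjusted p = 0.00225).

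Of 13 G protein subunits, 3 were higher and 2 lower in DOX (3 and 3 without Tb replicate 5). The largest change was in *Gng2*, a γ subunit (1.26, SE 0.279, edgeR adjusted p = 0.00155), and *Gnai2*, the most abundant of the list and an inhibitory α subunit, had a log2 fold change of −0.20 (SE 0.116, edgeR adjusted p = 0.179). In Tb-DOX against Tb *Gna12* alone passed, and fell by 0.38 (SE 0.105, edgeR adjusted p = 0.0424; by 0.42 without Tb replicate 5).

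Downstream of cyclic AMP, 4 of 17 effectors and anchors were higher and 2 lower in DOX (4 and 3 without Tb replicate 5). With a tumor 2 were lower and none higher, and without Tb replicate 5 2 were lower and 1 higher. *Popdc2*, a cyclic AMP-binding membrane protein of muscle, was at 123.03 to 132.19 FPKM in Control and 219.62 to 285.54 in DOX, with a log2 fold change of 1.04 (SE 0.123, edgeR adjusted p = 6.56e-06). The change in Tb-DOX against Tb was 0.34 (SE 0.116, edgeR adjusted p = 0.0967), and the interaction was called (−0.70, SE 0.169, edgeR adjusted p = 0.0195). Without Tb replicate 5 these were 0.48, which passed (edgeR adjusted p = 0.00305), and −0.57 (edgeR adjusted p = 0.00923). *Rapgef4*, a cyclic AMP-activated exchange factor, and *Akap6*, an anchor of protein kinase A in myocytes, fell by 0.92 (SE 0.213, edgeR adjusted p = 0.017) and 0.51 (SE 0.106, edgeR adjusted p = 0.0089) in Tb-DOX against Tb, and by 0.58 and 0.53 without Tb replicate 5, both still called. Of 9 phosphodiesterases, which break cyclic nucleotides down, *Pde4a* fell most in DOX (1.65, SE 0.344, edgeR adjusted p = 0.000919), from 4.41 to 7.61 FPKM in Control to 0.65 to 2.83 in DOX. Its interaction was called (1.62, SE 0.464, edgeR adjusted p = 0.0351; 1.43 without Tb replicate 5, adjusted p = 0.0215). *Pde7a*, the most abundant, had a log2 fold change of −0.37 (SE 0.211, edgeR adjusted p = 0.177).

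Of 10 other genes of the renin-angiotensin-aldosterone system, 2 were higher and 3 lower in DOX. In Tb-DOX against Tb edgeR called 0 (1 higher and 1 lower without Tb replicate 5), with 4 at an unadjusted p under 0.05, and DESeq2 called 1. The aminopeptidase gene *Anpep* fell by 1.14 in DOX (SE 0.219, edgeR adjusted p = 0.000471). It was the gene called lower in Tb-DOX against Tb without Tb replicate 5 (log2 fold change −0.65, SE 0.188, edgeR adjusted p = 0.0432). *Lnpep*, the most abundant of the list and the gene of the angiotensin IV receptor, rose by 0.34 in DOX (SE 0.0914, edgeR adjusted p = 0.00628). With a tumor the log2 fold change of *Lnpep* was −0.24 (SE 0.0877, edgeR adjusted p = 0.111), and the interaction was called (−0.59, SE 0.127, edgeR adjusted p = 0.0143; −0.55 without Tb replicate 5, adjusted p = 0.0108). *Agtr1b* had 0 counts in every library, *Agtr2* at most 3 and *Ren1* at most 2, so *Agtr1a* was the only angiotensin II receptor gene measured above that level. *Agt*, the precursor, lay between 0.28 and 8.69 FPKM.

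In the endothelin list edgeR and DESeq2 called 0 of 3 genes in both comparisons, and 1 had an unadjusted edgeR p under 0.05 in DOX against Control. *Ece1*, which makes endothelin, had a log2 fold change of 0.43 in DOX (SE 0.177, edgeR adjusted p = 0.0611), and without Tb replicate 5 it was 0.44 and passed (SE 0.0964, edgeR adjusted p = 0.00102), which made 1 of 3 called. *Ednra* made up 65.4% to 69.7% of the FPKM of *Ednra* and *Ednrb* in Control, 64.1% to 85.6% in DOX, 27.4% to 77.6% in Tb (72.2% to 77.6% without Tb replicate 5) and 73.4% to 81.0% in Tb-DOX. Of 17 Gq effectors and RGS proteins, 2 were higher and 5 lower in DOX, and 5 higher and 5 lower without Tb replicate 5. *Plce1*, a phospholipase C, fell by 0.82 (SE 0.156, edgeR adjusted p = 0.000459), and *Rcan1*, the most abundant and a regulator of calcineurin, had a log2 fold change of 1.41 in DOX (SE 0.591, edgeR adjusted p = 0.0661) and −1.06 in Tb-DOX against Tb (SE 0.566, edgeR adjusted p = 0.304). Without Tb replicate 5, the highest library at 182 FPKM, these were 1.42, which passed (SE 0.363, edgeR adjusted p = 0.00344), and 0.11 (edgeR adjusted p = 0.902).

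For each of the 8 genes the tested genes with the most similar pattern were ranked by Pearson's r of log2(TMM-scaled CPM + 1) over all 21 libraries, which fall into the 4 groups. The values are descriptions only. *Ace* was most like *Lyz2* (r = 0.919), a lysozyme of macrophages and neutrophils, *Pros1* (0.919) and *Vsir* (0.918). *Agtr1a* was most like *Mylk3* (0.900), *Tbx5* (0.894), a heart transcription factor, and *Fig4* (0.881). *Adcy6* was most like Gm47644 (0.934), *Zfyve21* (0.932) and *Rbm5* (0.895), which dropped to 0.870, 0.812 and 0.696 without Tb replicate 5. *Adcy5* was nearest to *Osbpl1a* (0.902), *Mpi* (0.867) and *Colq* (0.866), and *Ednra* to *Prmt9* (0.833) and *Zfp160* (0.825). *Adra1a* was nearest to *Ivns1abp* (0.872), *Pcmtd1* (0.871) and *Per3* (0.856), *Adra1b* to 9430037G07Rik (0.821), *Kdm5c* (0.790) and Gm527 (0.777), and *Adrb1* to ENSMUSG00002076074 (0.803), *Smim11* (0.793) and *Larp7* (0.783).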

How the data were processed

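Heart RNA from the 4 groups was sequenced in pairs of reads. The study's methods name oligo(dT) enrichment and the labels oligo(dT) or rRNA depletion. The authors deposited a single table that gives, for each gene in each library, a raw count and an FPKM value. The submitters' processing notes name GRCm39, cutadapt, FastQC, HISAT2, HTSeq 0.6.1 and DESeq2 1.34.0 without their roles, and whether counting used strand is not given in the sources used here. The deposited FPKM values equal count over gene length and library total within 0.006 FPKM. Groups follow the labels.

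Counts of the 13990 genes (of 56691, 34543 of them above 0) whose mean FPKM reached 0.5 were fitted in edgeR 4.0.16 (R 4.3.3): TMM factors 0.881 to 1.14, quasi-likelihood F tests, 1 coefficient per group, Benjamini-Hochberg over all genes tested, called at an adjusted p under 0.05. Each of the 8 genes was also compared by permuting libraries exactly (two-sided, log2(FPKM + 0.1)). Totals were 13521200 to 18601445 counts, and replicates differed by more than counting error (chi-square over degrees of freedom of 5.70 or more). Alternatives were median-ratio scaling, other filters, a replicate block, limma 3.58.1 on log2 FPKM, DESeq2 1.42.0, the compared groups alone and leaving out each library; scaling by library totals was added after seeing the data.

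Named were the 8 genes, per pathway list and doxorubicin comparison the called gene with the largest change and the most abundant gene, and the 3 genes of most similar pattern. *Grk3*, *Slc18a2*, *Akap6*, *Agt*, the marker genes and the genes named for low counts were chosen after their values were seen. The 8 genes and all lists were chosen with earlier results of these data known. Some genes that the rule names are not reported here. Protein sequences were not analysed here.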

Additional observations from a re-analysis of the deposited data

Results flagged for a closer look

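Of the 32 sets of FPKM values (8 genes in 4 groups), 1 held a library far from the rest of its group. *Adcy6* was at 11.43 FPKM in Tb replicate 5, and the nearest of the other 5 Tb libraries was at 28.83. Chance marks about 1 in 20 such sets. None of the 8 genes passed the edgeR test of whether the doxorubicin effect differed between mice with and without a tumor.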

How the results depend on the processing

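Of the 840 fits of a gene with 1 library left out (8 genes, 5 comparisons, 21 libraries), 788 kept direction and call, 18 lost a call, 6 gained one and 28 changed sign at values that were not called. No called value changed sign in any fit. The cause of the changes below was not tested. Genes called among the 8 ranged, over libraries left out, from 2 to 4 in DOX against Control, 0 to 3 in Tb-DOX against Tb (0 without Tb replicate 1, Tb-DOX replicate 1 or Tb-DOX replicate 5), 0 to 1 in Tb against Control, 1 to 2 in Tb-DOX against DOX, and were 0 throughout in the interaction. All genes called ranged from 4320 to 5943, 260 to 938, 595 to 1204, 1755 to 3478 and 657 to 1721 in the same order.

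With a fold minimum of 2 added, 0 of the 8 genes were called in DOX against Control, Tb-DOX against Tb, Tb against Control and Tb-DOX against DOX, and all genes called were 1392, 155, 504 and 786, with 544 in the interaction. In Tb-DOX against Tb 1 of the 8 was called with library totals, the compared groups alone and limma at either pseudocount (0.1 or 1). That gene was *Agtr1a*, except with the compared groups alone, where it was *Adcy5* and the calls of *Agtr1a* and *Adcy6* were both lost. In the same comparison all genes called were 351 with the compared groups alone, 420 with limma at 0.1 and 1043 with DESeq2. In Tb against Control 0 of the 8 were called with a mean FPKM of at least 5, the replicate block and limma at 0.1. In Tb-DOX against DOX 2 were called with library totals and with limma at 0.1 or 1. Under the stricter filter (mean FPKM 5 or more), which leaves fewer genes to test, all genes called were 2496 in DOX against Control, 334 in Tb against Control, 948 in Tb-DOX against DOX and 551 in the interaction, and DESeq2 called 1987 in the interaction.

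Same-numbered libraries of different groups did not deviate together (correlations of residuals −0.187 to 0.144, 2 of 30 pairs over 0.1), so the numbers were not taken as pairs. With the replicate block, all genes called were 469 in Tb against Control and 506 in the interaction, *Ednra* was called in Tb-DOX against Tb (0.82, edgeR adjusted p = 0.0473) and the *Ace* call in Tb against Control was lost (0.50, edgeR adjusted p = 0.107). With the block *Agtr1a* was at −0.035 and *Ednra* at −0.096 in Tb against Control, and the interaction of *Agtr1a* was 0.078.

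Other uncalled values changed sign. The interaction of *Adrb1* was 0.072 with library totals, 0.17 with limma at 0.1 and 0.10 at 1 (−0.22 to 0.19 over libraries left out), and that of *Agtr1a* was 0.12, 0.20 and 0.18, and 0.039 with a mean FPKM of at least 5 (−0.15 to 0.069). The interaction of *Adcy6* was −0.019 to 0.21 over libraries left out. In Tb against Control *Ednra* was −0.00045 with limma at 0.1 (−0.065 to 0.14), *Adra1b* ranged from −0.022 to 0.12 and *Agtr1a* from −0.015 to 0.19. In Tb-DOX against DOX *Adra1a* was 0.062 with library totals, 0.057 with limma at 0.1 and 0.032 at 1, and *Adcy6* was 0.033, 0.031 and 0.031. *Adcy5* was −0.0016 with median-ratio scaling, −0.0028 with no filter and −0.0016 with DESeq2 (−0.11 to 0.10), *Adrb1* ranged from −0.10 to 0.31 and *Agtr1a* from −0.053 to 0.13 over libraries left out. *Adra1a* and *Adrb1*, at 0.36 to 3.74 FPKM, rest on the fewest reads per length of the 8 genes.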
